A study of Homo sapiens with 4 samples.

Results

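The receptor kinase gene RET, its co-receptor genes GFRA1, GFRA2 and GFRA3 and the ligand genes GDNF, ARTN and NRTN were read in SK-N-BE(2) cells, an established MYCN-amplified human neuroblastoma line. The libraries came from cells with a control hairpin RNA (shNC, 2 libraries) or with one directed at METTL14 (shMETTL14, 2 libraries). METTL14 encodes a subunit of the enzyme that places N6-methyladenosine (m6A) on RNA. Hairpins were delivered with lentivirus and cells were kept under puromycin, so both groups are infected and selected pools of 1 line. The study used 2 METTL14 hairpins elsewhere, and which of them these libraries carry is not given in the sources used here. The 7 genes were taken by symbol, 7 of 60671 genes in the count table, and 5 of the 7 had enough counts to be tested. The family was selected on this same contrast, in which GFRA3 had already been seen among the strongest decreases, so the differences below between shMETTL14 and shNC are a description of these libraries and carry no test of their own.

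The ligands of this family (GDNF, neurturin from NRTN, artemin from ARTN and persephin from PSPN) are secreted proteins that bind a co-receptor tethered to the outer membrane by a lipid anchor. Each ligand has a preferred partner: GDNF binds the GFRA1 product, neurturin that of GFRA2, artemin that of GFRA3 and persephin that of GFRA4. The ligand and co-receptor together bring RET molecules into contact, RET phosphorylates itself, and the RAS to MAPK and PI3K to AKT routes are engaged. RET and the co-receptors guide the growth and survival of sympathetic and enteric neurons, and neuroblastoma arises from the sympathetic lineage.

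The stretches upstream of GFRA3 and RET are shown because these are the co-receptor and the receptor with the highest levels, and their RNA moved in opposite directions. Each is the 250 bases before a RefSeq start of the gene on GRCh38.p14 (for RET the first of 2 starts listed), written 5′ to 3′ on the gene's own strand. The GFRA3 window lies at chr5:138274622-138274871 on the minus strand and the RET window at chr10:43076819-43077068 on the plus strand. In GENCODE 29 the genes begin inside these windows, GFRA3 at 138274671 and RET at 43077027. The last bases of each window therefore lie within the annotated gene, as does the GC box marked for GFRA3. Capitals mark the GC box, GGGCGG, here always found as its reverse complement CCGCCC.
GFRA3: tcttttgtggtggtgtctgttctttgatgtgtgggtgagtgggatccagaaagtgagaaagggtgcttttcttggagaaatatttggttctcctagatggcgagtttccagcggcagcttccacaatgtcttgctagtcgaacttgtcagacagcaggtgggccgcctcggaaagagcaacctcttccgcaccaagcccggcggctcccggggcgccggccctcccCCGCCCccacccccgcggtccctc
RET: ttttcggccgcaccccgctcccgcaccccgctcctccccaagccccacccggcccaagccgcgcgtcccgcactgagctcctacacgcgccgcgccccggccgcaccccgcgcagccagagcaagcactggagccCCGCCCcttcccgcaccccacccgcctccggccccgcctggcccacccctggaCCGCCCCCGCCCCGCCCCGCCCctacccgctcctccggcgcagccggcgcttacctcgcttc
The GFRA3 window had a GC content of 59.2% and the RET window 79.6%, higher than 96.3% of the 35116 windows in the RefSeq table. The second RET window, not shown, had a GC content of 58.0% and 1 GC box. GC boxes are common, and 42.6% of those windows held at least 1 on either strand. The search also took in CACGTG (E-box, in 6.35% of windows), TATAAA (10.7%), CCAAT (32.0%) and TGACTCA (4.20%) on both strands, and none of these letters occurred in either window. A match or its absence describes the letters and says nothing about a factor.

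The coding sequence of GFRA3 held 2 copies of GGACT, the DNA spelling of GGACU, which is the most familiar form of the sequence at which m6A is placed. They are shown because METTL14 is part of the enzyme that acts there, with GGACT in capitals and 10 bases on each side, from the longest coding transcript in GENCODE 29 on GRCh38. The copy in exon 6 starts at base 890 of the coding sequence, and its 25 bases run across an exon junction between 138253886 and 138254066 of chromosome 5. The copy in exon 7 starts at base 1074 and lies at chr5:138253312-138253336.
GFRA3 exon 6: gggctgattgGGACTgccatgaccc
GFRA3 exon 7: tcttctcccaGGACTggccacaccc
Over the whole transcript of 2039 bases, GFRA3 held 5 copies, or 2.45 per kilobase, which was above 95.8% of 12788 tested genes with a coding transcript, whose median was 0.938. GFRA2 held 11 copies at 2.24 per kilobase, and RET 7 copies at 1.24 per kilobase. ARTN and NRTN held 1 copy each. Of the 774 tested genes at or above the density of GFRA2, 19.1% were called lower and 41.0% higher in shMETTL14, against 25.5% and 33.0% of all 12788. No methylation measurement was used here, so whether any of these copies is methylated was not examined.

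Sequencing was comparable between the libraries, with 18925786 to 19886214 counts assigned to genes. Replicate libraries differed by a mean chi-square of 2.21 to 2.66 per gene, above sampling noise, and libraries of different groups by 30.5 to 31.5. The labels do not say that replicates came from separate cultures, so every standard error and p-value measures the spread between these libraries, which may be technical. METTL14 had 753 and 754 counts in shNC and 303 and 321 in shMETTL14. Its level fell from 38.6 ± 1.13 to 16.1 ± 0.851 CPM (counts scaled to library size by TMM; mean ± SD, n = 2 each), or 41.7% of shNC. On the log2 scale the change was -1.26 (SE 0.0832), at an edgeR adjusted p of 3.6e-11. In the whole table, 52.5% of the 16309 tested genes were called at an adjusted p under 0.05, 27.2% higher and 25.3% lower in shMETTL14, and 8.79% were called with a change of at least 2-fold.

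Markers of noradrenergic neuroblastoma, the cell type that the label implies, were present in every library. HAND2 had 11247 to 14144 counts and MYCN 49710 to 61727, and all 9 of 9 listed markers passed the filter on low counts. Their summed level was 5553 to 5684 CPM in shNC and 5539 to 5592 CPM in shMETTL14. Of the Schwann cell markers 2 of 6 passed the filter, SOX10 was at 0 in all libraries, and the sum was 4.86 to 5.82 CPM in shNC and 3.83 to 4.26 CPM in shMETTL14. All 6 of 6 mesenchymal markers passed, and their sum moved from 438 to 440 CPM in shNC to 413 to 422 CPM in shMETTL14. Leukocyte markers (1 of 5 passing) summed to 2.11 to 2.61 CPM and 1.87 to 2.15 CPM, and epithelial markers (3 of 5 passing) to 7.73 to 8.30 CPM and 4.52 to 5.36 CPM. The part of these shifts in the results below was not tested.

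GFRA3 carried most of the co-receptor RNA of the control cells and lost most of it in shMETTL14. The gene (ENSG00000146013) spans 138252379 to 138274671 on the minus strand of chromosome 5, and its longest coding transcript has 8 exons. GFRA3 counts were 856 and 853 in shNC and 99 and 96 in shMETTL14. Both shMETTL14 libraries were far below both shNC libraries, and the libraries within a group were nearly equal. The mean level went from 43.7 ± 1.13 CPM to 5.02 ± 0.0481 CPM (SD, n = 2 each), 11.5% of the control or 8.71-fold lower. The fitted log2 fold change was -3.12 (SE 0.100). Ranked by that value, GFRA3 stood 37th from the lowest of 16309 tested genes. With any library left out it stayed between -3.15 and -3.09, and under the 7 other fits between -3.19 and -3.11. As these are bulk libraries, fewer cells expressing a gene and less of its RNA per cell cannot be told apart.

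GFRA2, the co-receptor of neurturin, was far weaker than GFRA3 and also lower in shMETTL14. It (ENSG00000168546) spans 21690403 to 21812357 on the minus strand of chromosome 8. Counts were 125 and 129 in shNC and 76 and 90 in shMETTL14. The groups did not overlap, although the shMETTL14 libraries were further apart than the shNC libraries. The level was 6.50 ± 0.329 CPM in shNC and 4.28 ± 0.562 CPM in shMETTL14 (SD, n = 2 each), 65.8% of the control, with a log2 fold change of -0.60 (SE 0.172). The gene was not called without shMETTL14 library 1, where the change was -0.47, nor by DESeq2 on all 4 libraries, where it was -0.61.

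GFRA1, the co-receptor of GDNF, was too weak to test. The gene (ENSG00000151892, minus strand of chromosome 10, 116056925 to 116273467) had 2 and 1 counts in shNC and 4 and 2 in shMETTL14. Only shMETTL14 library 1 exceeded 3 counts, the level taken here as the floor, which equals 0.151 to 0.159 CPM in these libraries. No fold change is given. GFRA4 and GFRAL, the remaining co-receptors of the family, had 0 counts in every library.

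RET, the signalling receptor shared by the co-receptors, was abundant and slightly higher in shMETTL14. The gene (ENSG00000165731) spans 43077027 to 43130351 on the plus strand of chromosome 10 and its longest coding transcript has 20 exons. RET counts were 6509 and 5992 in shNC and 6976 and 7071 in shMETTL14. Scaled to library size, both shMETTL14 libraries were above both shNC libraries. Levels were 320 ± 9.65 CPM and 362 ± 7.87 CPM (SD, n = 2 each), 113% of the control, and 97.5% of the tested genes had a lower level in shNC. The log2 fold change was 0.18 (SE 0.0398). It ranged from 0.15 to 0.20 with a library left out and was smallest, at 0.11, with upper quartile scaling, a scaling that lowered all log2 fold changes by a median of 0.0676.

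**Figure D1:**
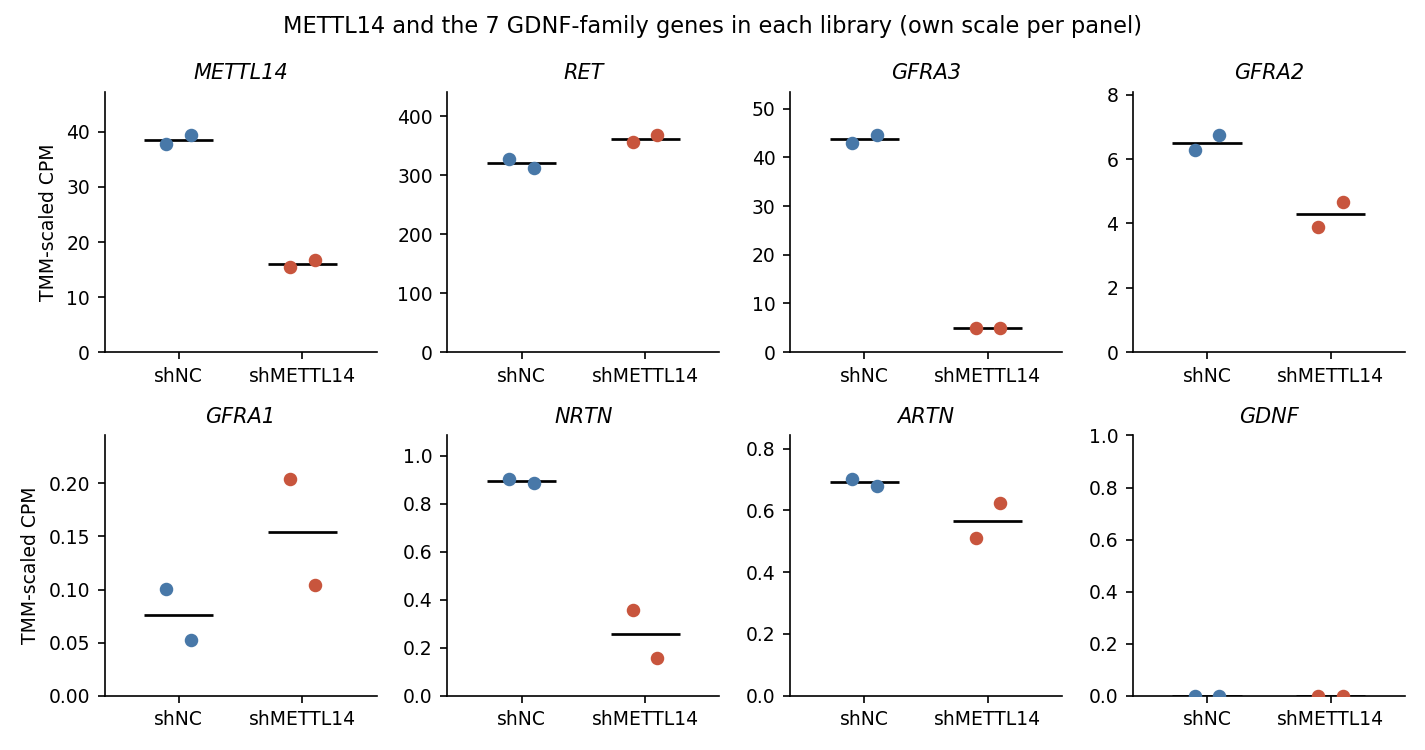
TMM-scaled CPM of METTL14 and the 7 family genes in each library (points, 2 per group) with the group mean (line); each panel has its own axis, starting at 0. GFRA3 drops from 43.7 CPM in shNC to 5.02 CPM in shMETTL14 while RET lies between 313 and 367 CPM in all 4 libraries, and the lower panels hold genes near the floor, where a point rests on few counts.

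The ligand genes gave little RNA in either group. NRTN (ENSG00000171119, plus strand of chromosome 19, 5823802 to 5828324) had 18 and 17 counts in shNC and 7 and 3 in shMETTL14. Both shMETTL14 libraries were lower, and the gene passed the filter on low counts only through shNC. Its level was 0.895 ± 0.0108 CPM in shNC and 0.257 ± 0.143 CPM in shMETTL14 (SD, n = 2 each), with a log2 fold change of -1.77 (SE 0.547). DESeq2 did not call it (-1.80), and the edgeR call held in 1 of 4 fits with a library left out. Without shMETTL14 library 1 the change was -2.47 and called, and it was not called without shMETTL14 library 2 (-1.30), without shNC library 1 (-1.77) or without shNC library 2 (-1.78).

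ARTN, whose product is the preferred ligand of the GFRA3 co-receptor, was near its control level and not called. The gene (ENSG00000117407, plus strand of chromosome 1, 43933320 to 43937241) had 14 and 13 counts in shNC and 10 and 12 in shMETTL14. The groups did not overlap, but only by 1 count. Levels were 0.691 ± 0.0166 CPM and 0.567 ± 0.0798 CPM (SD, n = 2 each), and the log2 fold change of -0.28 was smaller than its SE of 0.475 and was not called. GDNF (ENSG00000168621, minus strand of chromosome 5, 37812677 to 37839686) had 0 counts in all 4 libraries, which allows up to 3 counts a library, or 0.159 CPM in the shallowest. It is the only family gene that shares annotated exon bases with another gene, 526 bases with the antisense RNA GDNF-AS1.

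Of the 5 tested family genes, 4 were called, 1 higher (RET) and 3 lower (GFRA2, GFRA3 and NRTN), where 52.5% of all tested genes were called. A change of at least 2-fold was called for 2 of them, GFRA3 and NRTN, against 8.79% of all genes. All 5 had groups that did not overlap in CPM, as did 75.5% of all tested genes. The median log2 fold change of the 5 was -0.60, and that of all tested genes -0.00095. Nothing is read from these shares, since the contrast that gives them was known when the family was chosen.

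Levels of different genes were compared per kilobase of annotated exon. In shNC the order was RET at 46.3 ± 1.40, GFRA3 at 21.5 ± 0.555, GFRA2 at 1.14 ± 0.0576, NRTN at 0.807 ± 0.00976, ARTN at 0.260 ± 0.00625 and GFRA1 at 0.00788 ± 0.00352 CPM per kilobase (SD, n = 2 each), with GDNF at 0. No 2 neighbours in this order overlapped between the shNC libraries, and the order was the same when the length of the longest coding transcript was used. In shMETTL14 the levels were 52.4 ± 1.14 for RET, 2.46 ± 0.0236 for GFRA3, 0.749 ± 0.0983 for GFRA2, 0.231 ± 0.129 for NRTN, 0.213 ± 0.0300 for ARTN and 0.0159 ± 0.00733 CPM per kilobase for GFRA1. NRTN and ARTN overlapped there and were not ordered. With the length of the longest coding transcript they did not overlap in shMETTL14, and ARTN lay above NRTN. The values were 0.574 and 0.701 CPM per kilobase for ARTN and 0.322 and 0.141 for NRTN. The order of these 2 weakly counted genes in shMETTL14 therefore depends on the length used. GFRA3 therefore kept its place behind RET but came much closer to GFRA2.

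**Figure D2:**
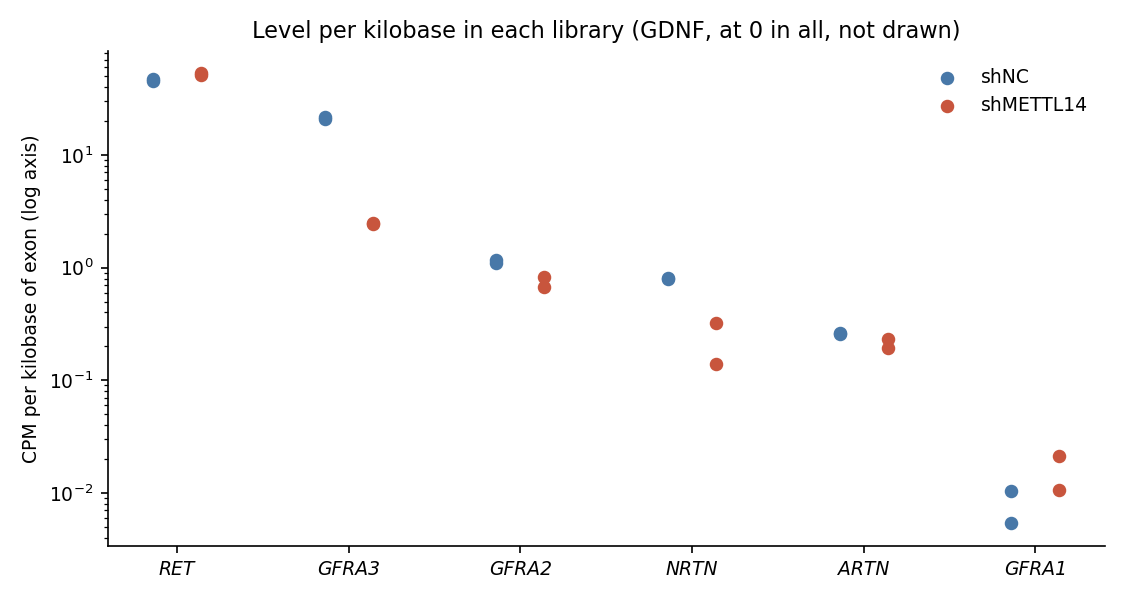
CPM per kilobase of annotated exon (log axis) for each family gene with counts, ordered by the shNC mean, with 2 points per group. The 2 libraries of a group often coincide; GFRA3 moves from 21.5 to 2.46 CPM per kilobase, while NRTN and ARTN overlap in shMETTL14.

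The make-up of the co-receptor pool followed from these levels. GFRA3 made up 95.0% and 94.9% of the summed RNA of GFRA1, GFRA2 and GFRA3 per kilobase in the shNC libraries, and 78.0% and 74.7% in the shMETTL14 libraries. The share of GFRA2 went from 4.95% and 5.12% to 21.4% and 25.0%, although its own level was lower. The ratio of GFRA3 to GFRA2 per kilobase was 19.2 and 18.5 in shNC and 3.65 and 2.99 in shMETTL14. The summed pool went from 22.6 ± 0.609 to 3.23 ± 0.0674 CPM per kilobase (SD, n = 2 each). RET RNA per unit of summed co-receptor RNA was 2.13 and 1.97 in shNC and 16.2 in both shMETTL14 libraries. With the length of the longest coding transcript the mean ratios were 2.48 and 18.8. These are ratios of RNA within a library, which no scaling between libraries changes, and protein at the cell surface was not measured.

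**Figure D3:**
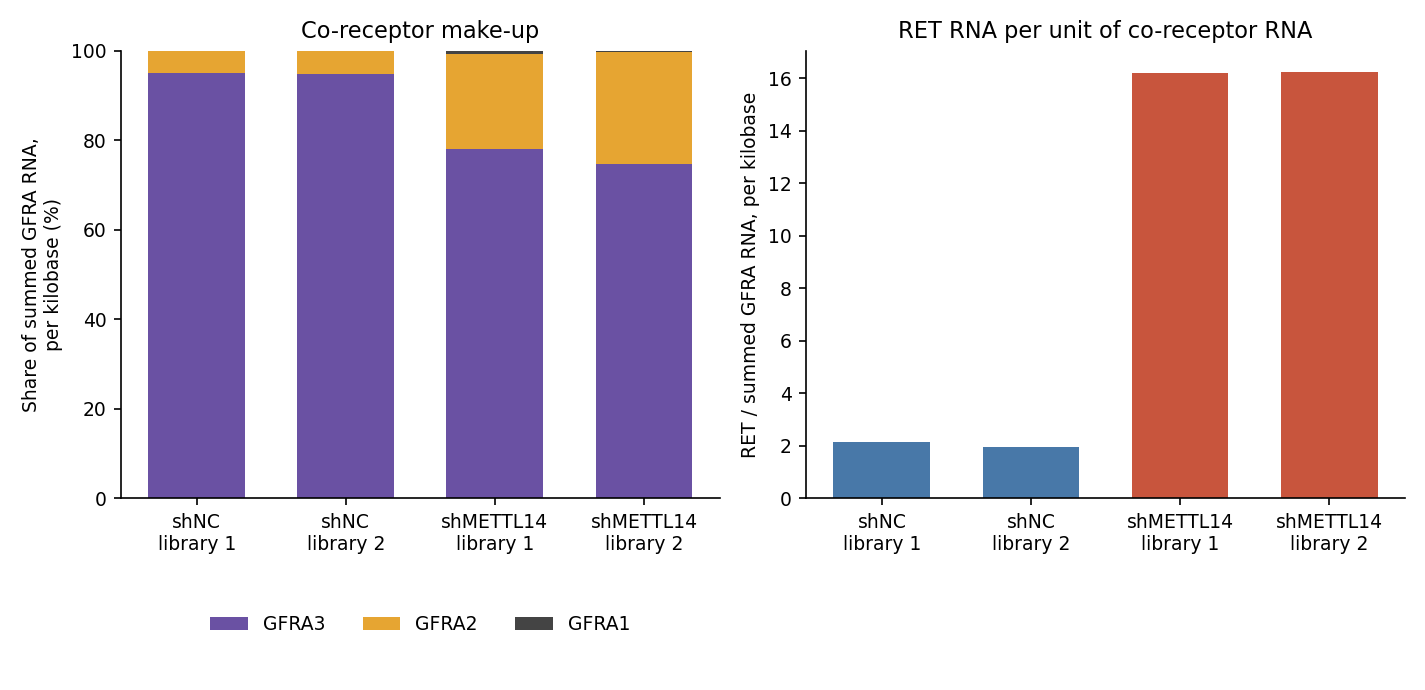
Left, the share (%) of summed GFRA1, GFRA2 and GFRA3 RNA per kilobase that each gene holds in each library; right, RET RNA per kilobase divided by that sum. GFRA3 covers 95.0% and 94.9% of the bars in shNC and 78.0% and 74.7% in shMETTL14, and the ratio on the right is 2.13 and 1.97 in shNC and 16.2 in both shMETTL14 libraries.

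Other genes of the pathway were read from 8 lists covering 83 genes, of which 67 were tested. Among these, 47 (70.1%) were called, 21 higher and 26 lower, against 52.5% of all tested genes, and their median log2 fold change was 0.03. The lists were written with earlier results of these data known. Of the 67 tested, 7 were called with a change of at least 2-fold, where 8.79% of all tested genes were.

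Of the 4 other ligands and receptors of the family, 2 were tested. PSPN, the gene of persephin, had 51 and 59 counts in shNC and 26 and 41 in shMETTL14, a log2 fold change of -0.70 (SE 0.285, edgeR adjusted p 0.0426). GDF15, a distant relative whose product signals through GFRAL and RET, rose from 14 and 18 counts to 33 and 41, by a log2 fold change of 1.21 (SE 0.363, edgeR adjusted p 0.0078). PSPN was not called without shNC library 2 (-0.56) or without shMETTL14 library 1 (-0.40). GDF15 was not called without shNC library 1 (1.01) or without shMETTL14 library 2 (1.04). DESeq2 called neither.

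All 4 alternative receptors and regulators at the membrane were tested, 1 rose and 2 fell. Of all tested genes, 27.2% were called higher and 25.3% lower. LRIG1, a membrane protein that binds RET and restrains it, had 297 and 240 counts in shNC and 90 and 68 in shMETTL14, and fell by 1.75 on the log2 scale (SE 0.152, edgeR adjusted p 2.9e-09). SORL1, a sorting receptor for GDNF and its co-receptor, fell by 0.56 on the log2 scale (SE 0.0501). SDC3, a heparan sulfate proteoglycan that binds the ligands, rose by 0.26 (SE 0.0597). NCAM1, an alternative receptor for GDNF, had a value of 0.08 (SE 0.0436, edgeR adjusted p 0.151). Of the 4 proprotein convertases, which cleave ligand precursors, the 2 that were tested both rose, PCSK7 by 0.64 (SE 0.0605) and FURIN by 0.40 (SE 0.0860), while PCSK5 and PCSK6 had at most 9 counts a library.

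Among 20 tested adaptors that dock on phosphorylated RET or act just after it, 5 rose, 4 fell and 11 were not called, a called share of 45.0% against 52.5% of all tested genes. The smallest adjusted p-values belonged to IRS2, which rose by 0.84 (SE 0.0449, edgeR adjusted p 1.2e-12), DOK4, which fell by 0.74 (SE 0.0458), and SHC1, which rose by 0.49 (SE 0.0382). IRS2 and DOK4 code for docking proteins of the insulin receptor substrate and DOK families, and SHC1 for an adaptor that links receptors to RAS. In counts, IRS2 went from 1839 and 1720 to 3134 and 3190 and DOK4 from 2983 and 2882 to 1807 and 1676. Of 6 tested genes for RET turnover and dephosphorylation, 1 rose and 3 fell (66.7% called). CBLB, a ubiquitin ligase, rose by 0.47 (SE 0.0561), whereas its relative CBL fell by 0.26 (SE 0.0450) and SH3KBP1, a CBL partner in receptor endocytosis, fell by 0.58 (SE 0.0918).

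All 16 kinases and GTPases of the downstream cascades were tested, 6 rose, 5 fell and 5 were not called (68.8% called, against 52.5% of all tested genes). RAC1, a GTPase of the cytoskeleton, rose by 0.48 (SE 0.0394). PIK3R1, the regulatory subunit of PI3K, fell by 0.35 (SE 0.0440). No member of this list reached a 2-fold change.

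Genes known to be induced by RET signalling moved both ways. Of 10 tested, 4 rose and 5 fell, where 27.2% of all tested genes were called higher and 25.3% lower, with a median log2 fold change of -0.03. VSNL1, which encodes a neuronal calcium sensor, had 801 and 731 counts in shNC and 147 and 137 in shMETTL14, and fell by 2.42 on the log2 scale (SE 0.0959, edgeR adjusted p 9.9e-15). The transcription factor gene ETV4 rose from 952 and 853 counts to 1868 and 1907, by 1.07 (SE 0.0543, edgeR adjusted p 4.8e-13). SPRY2, a feedback inhibitor of receptor kinases, rose from 366 and 327 to 785 and 740 counts, by 1.15 (SE 0.0814, edgeR adjusted p 1.2e-10). CXCR4, a chemokine receptor, had 24 and 11 counts in shNC and 2 and 9 in shMETTL14, a log2 fold change of -1.63 (SE 0.601, edgeR adjusted p 0.0269). It passed the filter on low counts only through shNC, the group where it is higher, and was not called without shNC library 1 (-1.01), without shMETTL14 library 1 (-0.92) or with DESeq2.

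All 7 tested genes among transcription factors upstream of RET or of the sympathetic lineage were called, 1 higher and 6 lower, with a median log2 fold change of -0.29. Of all tested genes, 52.5% were called and 25.3% were called lower. HAND2, a factor of sympathetic neuron development, had 14144 and 13580 counts in shNC and 11247 and 11248 in shMETTL14, and fell by 0.29 (SE 0.0365, edgeR adjusted p 6.8e-07). RET itself, as given above, was slightly higher.

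Strand handling in the counting is not given in the sources used here, and several of these genes share annotated exon bases with a gene on the other strand. The share of exon bases was 24.1% for HAND2 (with HAND2-AS1) and 12.9% for LRIG1 (SLC25A26). PCSK7 shares 17.7% with AP000892.3. SHC1 shares 7.51% with AL451085.2 on the other strand and 7.72% with PYGO2 on its own strand. For PSPN, DOK4, IRS2, CBL and ETV4 it was under 6%. Their reads could have been lost or credited to the partner.

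**Figure D4:**
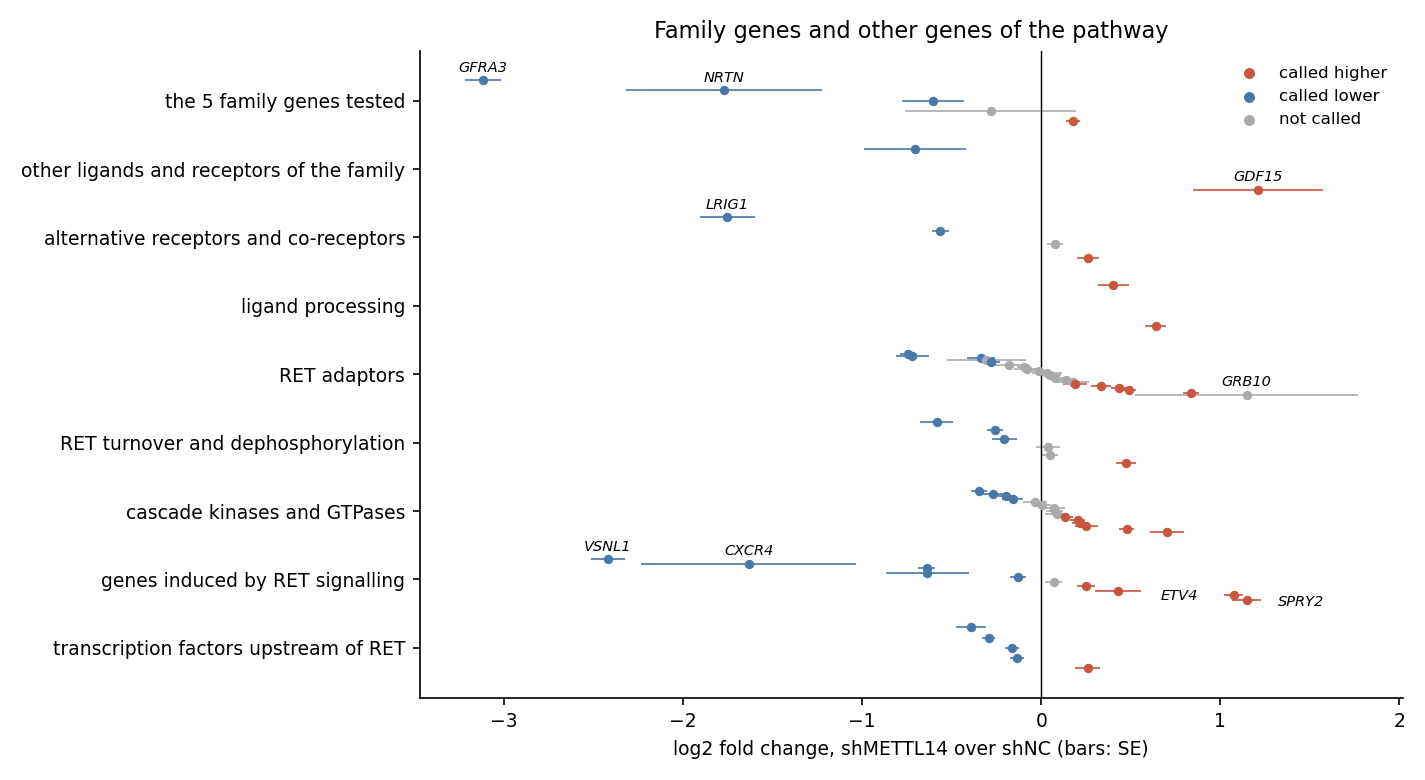
Log2 fold change of shMETTL14 over shNC with its SE (bars) for the 5 tested family genes and the tested pathway genes reported here, coloured by whether edgeR called the gene. GFRA3 at -3.12 lies lowest of all genes drawn, and VSNL1 at -2.42 is the lowest of the pathway genes.

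The genes whose pattern over the 4 libraries was most like each family gene were found among 11359 genes (those whose mean log2 CPM was 2 or more), by the distance between log2 profiles relative to the shNC mean. Nearest to GFRA3 were VEGFD (distance 0.354), with 366 and 401 counts in shNC and 34 and 44 in shMETTL14, and MEGF6 (0.370), with 218 and 204 against 29 and 26. Nearest to GFRA2 were ALG10B (0.0541) and ABRAXAS1 (0.0616), nearest to RET were ANAPC7 (0.0115) and SF1 (0.0149), nearest to ARTN were ZNF774 (0.0296) and C15orf40 (0.0402), and nearest to NRTN were APOE (0.3334) and ZNF572 (0.339). ABRAXAS1 shares 25.15% of its exon bases with MRPS18C on the other strand, and ANAPC7 shares 11.37% with AC144548.1 on its own strand. The distances describe 4 libraries and were computed from the same contrast.

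Genes beside the receptor genes were read to place each change in its surroundings, a step chosen after the family's values were seen. Within 250 kb of GFRA3, 11 other genes were tested, of which 1 was called higher and 7 lower (25.3% of all tested genes were called lower). Their log2 fold changes lay between -0.98 and 0.35, so none came near the -3.12 of GFRA3. The nearest upstream, CDC25C at -10.6 kb (negative is upstream), was at -0.43 (SE 0.0764, edgeR adjusted p 5.9e-05), and the nearest downstream, CDC23 at 39.0 kb, was at -0.05 (SE 0.0526). CDC25C shares 8.78% of its exon bases with FAM53C on the other strand. Around RET, 4 were tested, of which 1 was called higher and 0 lower, between -0.09 and 0.19. Around GFRA2, both tested genes were called lower, DMTN at -0.91 (SE 0.218) and XPO7 at -0.21 (SE 0.0422). Around the ligand genes, 3 of 11 were called higher and 2 lower near ARTN, and 2 of 15 higher and 4 lower near NRTN.

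**Figure D5:**
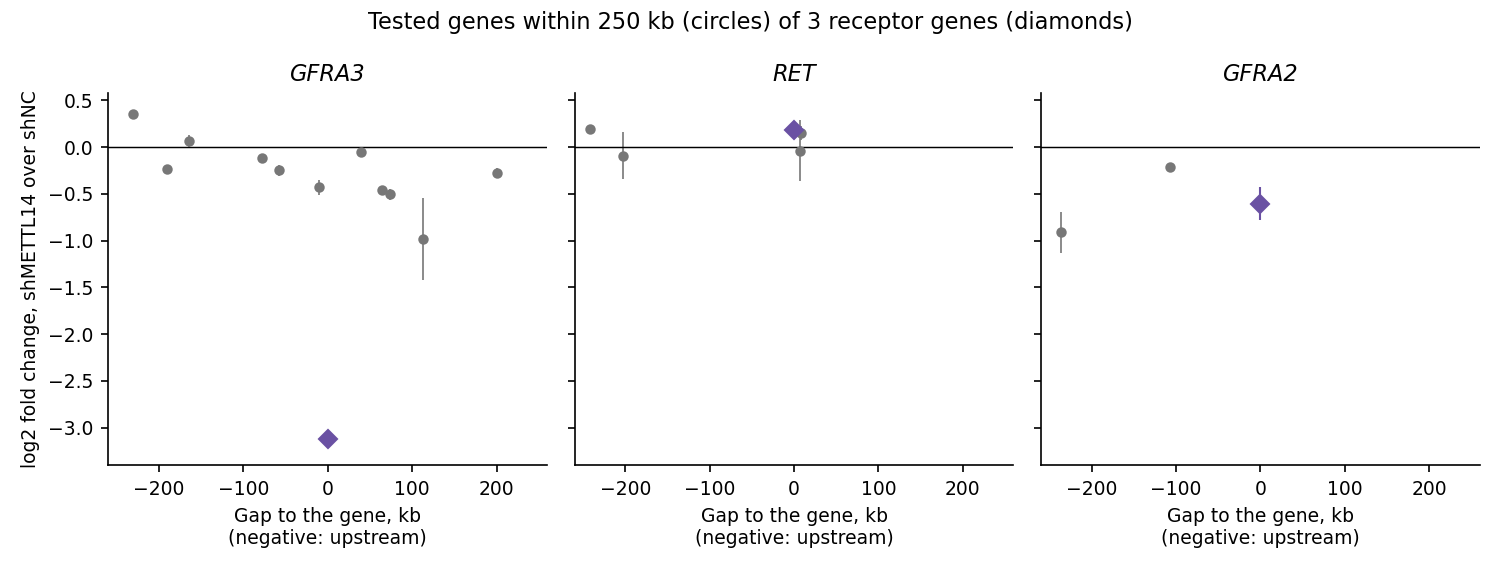
Log2 fold change with SE (bars) of tested genes within 250 kb (circles) plotted against the gap in kb along the strand of GFRA3, RET or GFRA2 (diamonds, at 0). The 11 neighbours of GFRA3 lie between -0.98 and 0.35, far above its -3.12. The 4 neighbours of RET lie between -0.09 and 0.19, and RET at 0.18 is near the upper end of that range.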

How the data were processed

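Total RNA of SK-N-BE(2) cells was sequenced in 4 libraries. The authors deposited raw read counts per Ensembl gene. The processing notes name HISAT2 2.1.0, HTSeq 0.13.5, StringTie 1.3.6 and edgeR, with GRCh38, without roles; annotation release and strand setting are not given in the sources used here. Lines naming no gene held 19.1% to 19.9% of counts and were left out.

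Counts were tested with edgeR 4.0.16 in R 4.3.3 (quasi-likelihood F-test, TMM, filterByExpr defaults, 10 as the minimum count and 15 as the minimum total, Benjamini-Hochberg adjustment over 16309 genes, called under 0.05). An exact permutation test of 2 against 2 libraries cannot go below 0.333, so calls rest on a variance model that genes share. Recovery of known changes was tested on simulated data. Fold changes are shMETTL14 over shNC, and standard errors come from the F statistic. Counting floors cover counting error only. Lengths and positions come from GENCODE 29 on GRCh38, promoters from RefSeq on GRCh38.p14, in which 6 of the 7 genes were read.

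The family, lists and naming rule (in each list the 3 smallest adjusted p-values and every called gene with at least 2-fold change; for each tested family gene the 2 nearest profiles) were chosen with earlier results of these data known. Replicate numbers, groups and files came from the labels. Some genes that this rule names are not reported here. Alternatives were other scalings, filters, DESeq2 1.42.0, a replicate block and leaving out each library. An alternative gene length for the receptor ratios and the neighbouring genes were added after seeing the data.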

Additional observations from a re-analysis of the deposited data

How the results depend on the processing

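GFRA3, RET and METTL14 kept their direction under every alternative run, and their call under all but the added 2-fold requirement, under which RET was not called. METTL14 lay between -1.33 and -1.21 on the log2 scale. With DESeq2, 2 of the family genes (GFRA3 and RET) were called instead of 4, and 2 (GFRA3 and NRTN) when a change of at least 2-fold was also required, which left 1433 genes in the whole table instead of 8561. DESeq2 called 6022. NRTN was dropped by the filter of at least 10 counts in every library. Leaving out a library moved GFRA2 between -0.73 and -0.47, NRTN between -2.47 and -1.30 and ARTN between -0.42 and -0.14. With the longest coding transcript as the length, RET per summed co-receptor RNA was 2.48 in shNC (main value 2.05) and 18.8 in shMETTL14 (main value 16.2). The cause of these differences was not tested. Of all called genes, 51.8% were higher under TMM, 44.9% under library size alone and 41.7% under upper quartile scaling. With the replicate block 8926 genes were called and the same 4 family genes. Same-numbered libraries did not deviate together (Pearson r of -0.0018 across 16309 genes). That value includes weakly counted genes and cannot tell whether same-numbered libraries were prepared together, which the labels do not say. With 2 libraries a group, counts under about 20 a library, as for NRTN and ARTN, limit what can be seen.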
